A study of Schizosaccharomyces pombe with 9 samples.

Results

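The stretch described here is one end of chromosome II of the fission yeast Schizosaccharomyces pombe, the end that carries the galactose genes. Its members were taken by name and not by any measured value, though the choice was made with earlier results of these data known. Of 5129 genes in the count table, 45 have an ID of the clones SPBCPT2R1, SPBPB2B2, SPBC8E4 or SPBC1289. The galactose genes gal1, gal10 and gal7, the phosphate transporter gene pho84 and the flocculin gene pfl5 were left out, which gave 40 members. By clone these are 5 of SPBCPT2R1, 14 of SPBPB2B2, 5 of SPBC8E4 and 16 of SPBC1289. In the order of genes in the RefSeq annotation, the 39 protein-coding members all lie among the outermost 46 coding genes of this chromosome end, so the name of the stretch holds, and the remaining member, prt2, is a non-coding RNA beside pho84.

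The 9 libraries of poly(A)-selected RNA came from 3 genotypes (3 replicates of each), all grown to mid-log phase in liquid YES, a rich medium. WT is the wild-type strain, tra1D lacks the gene tra1, and tra1-AA carries a tra1 allele of that name whose sequence change is not described in the labels. Each genotype is a single strain by its strain number, so strain background and genotype cannot be told apart. A mark of re-analysis stands in the titles of WT and tra1D but not of tra1-AA, so in comparisons with tra1-AA this mark and the allele cannot be told apart.

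Tra1 is a large pseudokinase that transcription activators bind in order to bring the SAGA co-activator complex to promoters. The ends of fission yeast chromosomes I and II hold tlh genes, which encode RecQ-type helicases next to the telomere repeats. Then comes a subtelomeric stretch of poorly expressed genes, many of them for transporters, surface proteins and enzymes of uptake and metabolism. The heterochromatin that starts at the telomere keeps the outermost genes nearly silent. Genes farther inside, such as those for splicing or transport of proteins into mitochondria, are used by every growing cell.

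Library totals lay between 5738138 and 8101004 counts, and 3 counts corresponded to 0.379 to 0.503 CPM (counts brought to a common library size by edgeR's scaling). The tra1 transcript checked the labels, with a mean ± SD over 3 replicates of 94.1 ± 4.55 CPM in WT, 79.1 ± 8.22 CPM in tra1-AA and 0.44 ± 0.251 CPM in tra1D. Separate cultures are not stated for the replicates, and a p-value here covers only the spread among these libraries, which may be technical. In bulk RNA, fewer cells expressing a gene and less of its RNA per cell cannot be told apart.

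In tra1-AA, 9 members of the chromosome end fell and none rose (uap2 passed as higher with another scaling, given below), and 7 of the 9 encode enzymes. The largest fall was that of the amino acid permease gene nrg1, which was 11.7-fold lower, followed by cao2, a gene for a copper amine oxidase-like protein, which was 6.65-fold lower. The others were say1, SPBPB2B2.05, SPBPB2B2.06c, SPBC8E4.04, SPBC8E4.03, pan5 and the non-coding RNA prt2, with falls between 1.37-fold and 3.61-fold. All 9 had every tra1-AA library below every WT library. So did SPBPB2B2.08, Tf2-11, spf38 and spi1, which did not pass. For uap2, which did not pass either, every tra1-AA library lay above every WT library. The test that picked the 9 favours such separation, and the share of all tested genes that separate in this way was not counted. These 9 made up 32.1% of 28 members with enough counts to be tested, where 7.96% of all 4913 tested genes were called lower, 7.94% higher and 15.9% in either direction (BH-adjusted p under 0.05, quasi-likelihood test of edgeR). The median log2 fold change of the tested members was -0.173, against 0.006 over all tested genes.

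In tra1D, 4 members fell, all of them among the 9: nrg1, cao2, SPBC8E4.04 and prt2. They were 14.3% of the 28 tested members, where 6.35% of all tested genes were called lower, 5.17% higher and 11.5% in either direction. The median log2 fold change of the tested members was -0.061, against 0.004 over all tested genes. Both comparisons use the same WT libraries. No member passed as higher in either mutant by edgeR, DESeq2 or limma-voom, while 3 members in tra1D and 1 in tra1-AA were higher at an unadjusted p under 0.05. Of all 4913 tested genes, 652 in tra1D and 798 in tra1-AA were higher at that unadjusted p. With library totals alone as the scaling, uap2, a spliceosome gene, passed as higher in tra1D (0.40 on the log2 scale, BH-adjusted p = 0.0227 by edgeR) and in tra1-AA (0.34, BH-adjusted p = 0.0369 by edgeR). With it spi1, given below, passed as lower in both mutants, and the calls of cao2 in tra1D and of SPBPB2B2.06c and pan5 in tra1-AA were lost. That scaling also moved the share of rises among all genes called in tra1D from 44.9% to 64.9%.

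Non-coding RNAs that are not in the count table are annotated on the opposite strand over 100% of nrg1, 97.9% of cao2, 88.3% of prt2, 70.6% of say1 and 50.7% of SPBPB2B2.05. They cover 23.4% of SPBC8E4.04, 21.5% of SPBC8E4.03 and 18.9% of pan5, and none overlaps SPBPB2B2.06c. Tested members that did not pass have such overlaps too, from none in ecl3 and 3.32% of ppr8 to 85.1% of uap2 and 100% of SPBPB2B2.08. No source used here states whether the counting used strand, so the levels of the overlapped genes may include antisense reads.

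nrg1 lies at the inner edge of the SPBPB2B2 genes and encodes a permease that carries amino acids across a membrane. Its level was 39.0, 62.3 and 18.4 CPM in WT replicates 1 to 3, 6.54, 5.18 and 14.3 CPM in tra1D, against 4.73, 4.05 and 1.35 CPM in tra1-AA. WT was high and uneven, tra1D was lower in every library, and the tra1-AA libraries were lower still, with no overlap between any of the groups. The fall was 4.75-fold in tra1D (log2 fold change -2.25 ± 0.45 SE, BH-adjusted p = 0.00828 by edgeR). It was 11.7-fold in tra1-AA (log2 fold change -3.55 ± 0.52 SE, BH-adjusted p = 0.000955 by edgeR). Both calls were kept with each of the 9 libraries left out in turn.

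**Figure D1:**
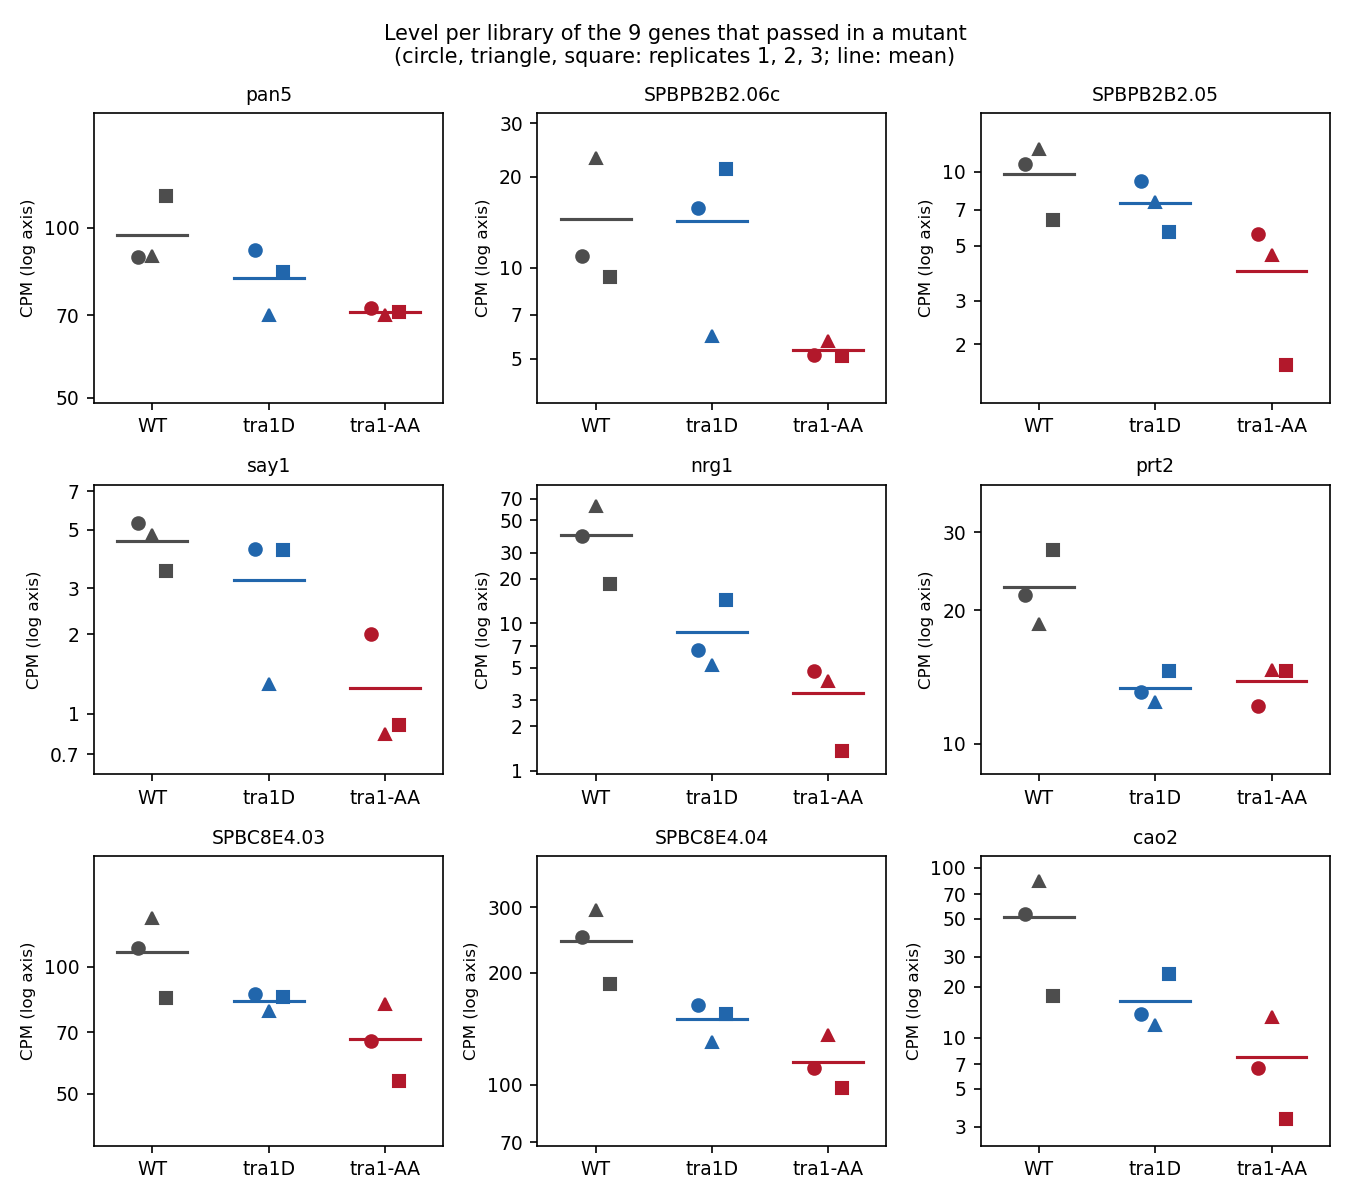
Level of the 9 called members in each library (CPM, logarithmic axis), by genotype. Circles, triangles and squares are replicates 1, 2 and 3, and the short line is the group mean. For each gene the 3 tra1-AA libraries lie below the 3 WT libraries, which the choice of genes by the test favours. The tra1D libraries overlap WT for cao2, SPBC8E4.03, say1, SPBPB2B2.05, SPBPB2B2.06c and pan5.

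cao2 belongs to a family of copper-dependent enzymes that oxidise primary amines. Its level was 53.4, 83.6 and 17.7 CPM in WT, 13.8, 11.9 and 23.6 in tra1D, against 6.59, 13.3 and 3.31 in tra1-AA. WT replicate 3 lay below tra1D replicate 3, so WT and tra1D overlapped, whereas WT and tra1-AA did not. In tra1-AA the fall was 6.65-fold (log2 fold change -2.73 ± 0.54 SE, BH-adjusted p = 0.00633 by edgeR) and was kept with each library left out, at -3.39 without tra1-AA replicate 2 and -2.21 at its smallest. In tra1D it was 3.20-fold (log2 fold change -1.68 ± 0.49 SE, BH-adjusted p = 0.0469 by edgeR). The tra1D call was lost in 6 of the 9 fits with a library left out (without WT replicate 1 or 2, any tra1D replicate, or tra1-AA replicate 1), and with DESeq2 (BH-adjusted p = 0.099) or limma-voom (BH-adjusted p = 0.0979), and with library totals alone (edgeR, BH-adjusted p = 0.0565).

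The adjacent genes SPBC8E4.03 and SPBC8E4.04 are annotated as an agmatinase, an enzyme that splits agmatine into urea and putrescine, and an aldo/keto reductase, an enzyme class that reduces carbonyl groups. SPBC8E4.04 stood at 249, 294 and 187 CPM in WT, 164, 130.4 and 155 in tra1D, against 111, 136 and 97.9 in tra1-AA. Both mutants lay wholly below WT. The fall was 1.63-fold in tra1D (log2 fold change -0.70 ± 0.16 SE, BH-adjusted p = 0.0139 by edgeR) and the fall in tra1-AA was also called (log2 fold change -1.09 ± 0.16 SE, BH-adjusted p = 0.000955 by edgeR). The tra1D call of SPBC8E4.04 was lost without WT replicate 1 (edgeR, BH-adjusted p = 0.0507) or tra1D replicate 2 (0.0685), and the tra1-AA call was kept throughout.

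SPBC8E4.03 stood at 111, 131 and 84.3 CPM in WT, 86.0, 78.7 and 84.8 in tra1D, against 66.7, 81.6 and 53.7 in tra1-AA. WT and tra1D overlapped through WT replicate 3, and the tra1-AA libraries were all below WT. The fall in tra1-AA was 1.62-fold (log2 fold change -0.69 ± 0.16 SE, BH-adjusted p = 0.0137 by edgeR). The tra1D value was -0.39 (SE 0.16) and did not pass (edgeR, BH-adjusted p = 0.137), though it did without WT replicate 3 (-0.54, edgeR, BH-adjusted p = 0.0244).

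say1, SPBPB2B2.05 and SPBPB2B2.06c follow one another outward from nrg1 and passed in tra1-AA but not in tra1D, at low CPM. say1 encodes a sterol deacetylase, which in budding yeast removes acetyl groups from sterols. It had 5.30, 4.77 and 3.49 CPM in WT, 4.21, 1.29 and 4.19 in tra1D, against 2.0, 0.839 and 0.902 in tra1-AA. Its tra1-AA libraries were below all WT libraries, while tra1D spanned both. The fall in tra1-AA was 3.61-fold (log2 fold change -1.85 ± 0.47 SE, BH-adjusted p = 0.0208 by edgeR), against a tra1D value of -0.53 (SE 0.40, edgeR, BH-adjusted p = 0.417). The say1 call in tra1-AA was lost without WT replicate 1 (edgeR, BH-adjusted p = 0.0773), tra1-AA replicate 2 (0.084) or tra1-AA replicate 3 (0.068).

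SPBPB2B2.05, annotated as a class I glutamine amidotransferase family protein, had 10.7, 12.3 and 6.34 CPM in WT, 9.15, 7.51 and 5.7 in tra1D, against 5.59, 4.61 and 1.65 in tra1-AA. tra1D overlapped WT and tra1-AA lay below it. The fall in tra1-AA was 2.47-fold (log2 fold change -1.31 ± 0.36 SE, BH-adjusted p = 0.0307 by edgeR), and the tra1D value was -0.40 (SE 0.33, edgeR, BH-adjusted p = 0.475). The SPBPB2B2.05 call in tra1-AA was lost without either WT replicate 1 or 2, or tra1-AA replicate 2 or 3, and in a fit of only WT and tra1-AA (edgeR, BH-adjusted p between 0.0585 and 0.101).

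SPBPB2B2.06c, annotated as a phosphoprotein phosphatase, had 10.9, 23.1 and 9.35 CPM in WT, 15.7, 5.96 and 21.1 in tra1D, against 5.16, 5.73 and 5.11 in tra1-AA. WT and tra1D ranged widely over the same levels, and the tra1-AA libraries were even and below both. The fall in tra1-AA was 2.71-fold and at the edge of the threshold (log2 fold change -1.44 ± 0.45 SE, BH-adjusted p = 0.04999 by edgeR). The tra1D value was -0.05 (SE 0.40, edgeR, BH-adjusted p = 0.951). The SPBPB2B2.06c call in tra1-AA was kept in 3 of the 9 fits with a library left out (without WT replicate 3, or tra1D replicate 2 or 3). It was also lost with DESeq2 (BH-adjusted p = 0.0503), limma-voom (0.106) and library totals alone (edgeR, BH-adjusted p = 0.0547). With the replicate number as a block within WT and tra1-AA only, it was kept (-1.38, BH-adjusted p = 0.00458 by edgeR). That pairing was inferred from these same data, so this fit is no independent check of the call. With the block over all 9 libraries the call was lost (edgeR, BH-adjusted p = 0.082).

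pan5, next to gal7, encodes a 2-dehydropantoate 2-reductase, the enzyme that makes pantoate for coenzyme A. Its level was 88.7, 89.1 and 114 CPM in WT, 91.5, 70.1 and 83.5 in tra1D, against 72.2, 70.0 and 71.0 in tra1-AA. tra1D replicate 1 reached into the WT range and tra1-AA was even and below it. The fall in tra1-AA was 1.37-fold (log2 fold change -0.45 ± 0.11 SE, BH-adjusted p = 0.0211 by edgeR), and the tra1D value was -0.25 (SE 0.11, edgeR, BH-adjusted p = 0.181). The pan5 call in tra1-AA was lost without WT replicate 3 (-0.32, edgeR, BH-adjusted p = 0.055), tra1-AA replicate 2 (0.0712) or tra1-AA replicate 3 (0.0535), and with library totals alone (0.0545).

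Outside the genes of core cell processes given below, the stretch has 9 enzyme genes, all tested. Roles were assigned with earlier results of these data known, so the counts by role describe this grouping and are no independent result about enzymes. In tra1-AA 7 fell and 2 did not pass, with a median log2 fold change of -1.086. In tra1D 2 fell and 7 did not pass, with a median of -0.39. Of all tested genes, 7.96% fell in tra1-AA and 6.35% in tra1D. Of the 9 enzyme genes, tgd1 and SPBC8E4.05c, annotated as a fumarate lyase, did not pass in tra1-AA. Some core genes also encode enzymes and are not in these counts. Among them, gmh6 (log2 fold change 0.12 in tra1D and 0.14 in tra1-AA) and uap1 (0.24 and 0.29) passed in neither mutant.

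tgd1, annotated as a nucleotide-sugar 4,6-dehydratase, lies between gal10 and gal7, and 98.8% of its annotated span is overlapped by gal10 on the opposite strand. It stood at 3.77 ± 0.943 CPM in WT, 3.75 ± 0.641 in tra1D and 3.42 ± 0.326 in tra1-AA (SD, n = 3). The log2 fold changes were 0.00 in tra1D and -0.14 in tra1-AA, and neither passed. Reads of tgd1 and gal10 may not have been told apart. Around it the left-out galactose genes were higher: gal7 rose from 20.5 ± 3.36 to 71.6 ± 3.01 CPM in tra1D (edgeR, BH-adjusted p = 5.08e-06) and 74.0 ± 9.54 CPM in tra1-AA (BH-adjusted p = 3.94e-06 by edgeR), and gal10 rose by 2.53 (edgeR, BH-adjusted p = 3.67e-05) and 2.05 (0.000181) on the log2 scale. gal1 rose in tra1D by 0.75 (edgeR, BH-adjusted p = 0.0207) and did not pass in tra1-AA at 0.40, and pfl5 passed in neither mutant.

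prt2 is annotated as a cis-acting regulatory non-coding RNA that represses pho84. Its annotated span overlaps pho84 on the same strand over 54.5% of its length. How reads there were counted is not stated, and they may have gone to either gene or to neither. prt2 had 21.6, 18.6 and 27.4 CPM in WT, 13.1, 12.4 and 14.6 in tra1D, against 12.2, 14.7 and 14.6 in tra1-AA. Both mutants lay below WT in every library and covered nearly the same levels. The fall was 1.68-fold in tra1D (log2 fold change -0.75 ± 0.17 SE, BH-adjusted p = 0.0141 by edgeR) and 1.62-fold in tra1-AA (-0.70 ± 0.17 SE, BH-adjusted p = 0.0156 by edgeR). The prt2 call in tra1D was lost without tra1D replicate 2 (edgeR, BH-adjusted p = 0.0657). pho84, which encodes a phosphate transporter, had 1044 ± 294 CPM in WT, 1247 ± 144 in tra1D and 1088 ± 132 in tra1-AA and did not pass in tra1D (log2 fold change 0.26, edgeR, BH-adjusted p = 0.393) or tra1-AA (0.06, edgeR, BH-adjusted p = 0.854).

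The genes toward the inside of the stretch, from gmh6 to chr4, are 13 genes of core cell processes, among them uap2, usp109 and spf38 (splicing), tim21 (protein import into mitochondria), rpc40 (RNA polymerases I and III), vma10 (vacuolar proton pump) and spi1 (the GTPase Ran). This group, too, was set with earlier results of these data known. By edgeR, 0 of the 13 passed in either mutant, where 11.5% of all tested genes did in tra1D and 15.9% in tra1-AA. At an unadjusted p under 0.05 there were 2 and 3 of the 13, against 1300 and 1499 of all 4913 tested genes. DESeq2 called 1 of the 13, spi1, as lower in both mutants, and limma-voom called none. Log2 fold changes ran from -0.27 to 0.32 in tra1D and from -0.26 to 0.29 in tra1-AA, with medians of -0.013 and 0.003.

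spi1, the member of highest CPM, had 1429.8 ± 70.2 CPM in WT, 1182 ± 75.6 in tra1D and 1192 ± 76.0 in tra1-AA (SD, n = 3). Its log2 fold changes were -0.27 (edgeR, BH-adjusted p = 0.0593; DESeq2, BH-adjusted p = 0.00793) and -0.26 (edgeR, BH-adjusted p = 0.0584; DESeq2, BH-adjusted p = 0.00949). By edgeR spi1 passed as lower with library totals alone (BH-adjusted p = 0.0305 in tra1D and 0.0205 in tra1-AA) and without tra1D replicate 1 (0.0456 and 0.0495), and in tra1D also without tra1-AA replicate 1 (0.0462). rpc40 averaged 304, 279.5 and 296 CPM in WT, tra1D and tra1-AA. pob1, a gene for a Boi family protein, averaged 159, 151 and 153 CPM. The transcription factor gene adn2 averaged 103, 102 and 103 CPM. uap2, chosen here after its values were seen, had the highest value of the 13, 0.32 in tra1D (edgeR, BH-adjusted p = 0.0643) and 0.29 in tra1-AA (edgeR, BH-adjusted p = 0.0745).

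The tested members with the highest values in tra1D, also chosen after they were seen, were ecl3 and SPBC8E4.05c, which flank the agmatinase and aldo/keto reductase genes. ecl3 belongs to a small family known for extending chronological lifespan when overproduced, and its log2 fold change in tra1D was 1.05 (SE 0.37, edgeR, BH-adjusted p = 0.0887). That of SPBC8E4.05c was 0.75 (edgeR, BH-adjusted p = 0.15). Neither passed in either mutant. SPBPB2B2.08, an uncharacterised gene between pan5 and SPBPB2B2.06c, averaged 1.58, 0.995 and 0.377 CPM in WT, tra1D and tra1-AA, and its log2 fold change of -1.99 in tra1-AA did not pass (edgeR, BH-adjusted p = 0.103).

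**Figure D2:**
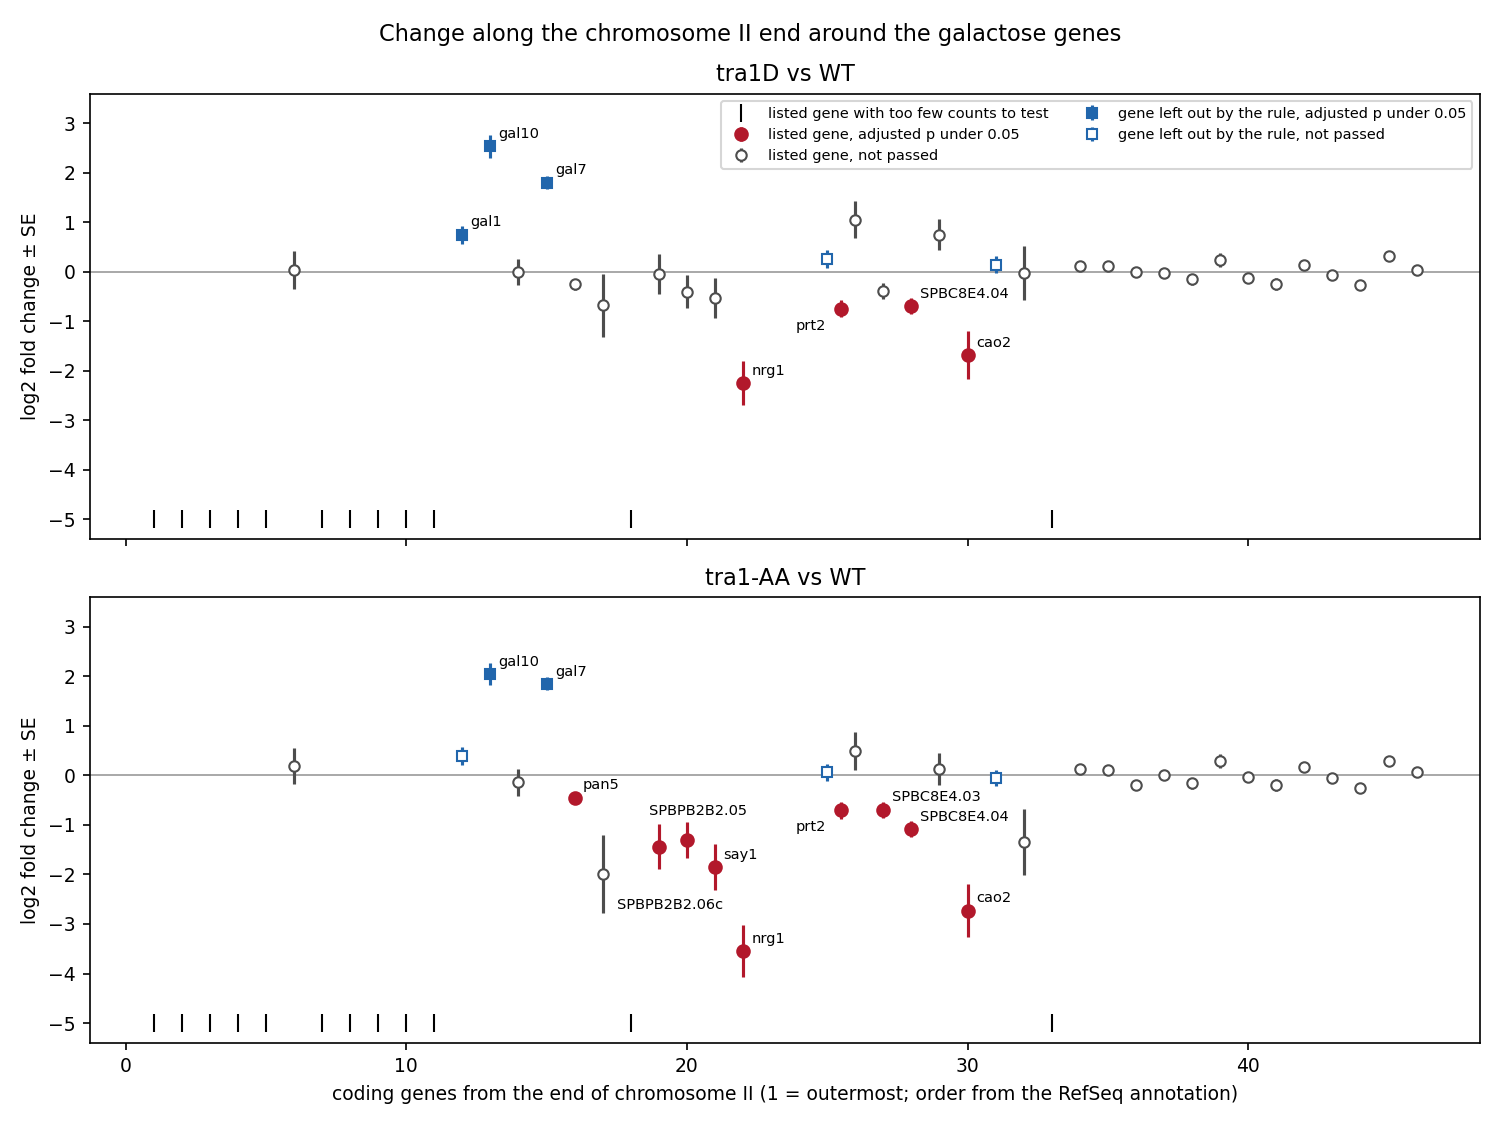
Log2 fold change against WT (points, with the SE as bars) of each tested member by its place in the order of coding genes counted from the chromosome end, for tra1D and tra1-AA. Filled red points passed, open grey points did not, blue squares are the left-out neighbours (filled where passed), prt2 is drawn between pho84 and ecl3, and black ticks are the 12 members set aside for low counts. The red points lie between pan5 and cao2, and the 13 core genes at the inner side stay between -0.27 and 0.32.

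By place, the called members ran from pan5 to cao2, with genes that did not pass and left-out genes among them, as the plot by gene order shows. A gene of another clone within this run, pho1, named here after its values were seen, encodes an extracellular acid phosphatase and was higher in tra1D (log2 fold change 0.90, BH-adjusted p = 0.0204 by edgeR) and in tra1-AA (0.96, BH-adjusted p = 0.0122 by edgeR). Of 8 tested SPBPB2B2 genes, 5 fell in tra1-AA and 1 in tra1D, with median log2 fold changes of -1.372 and -0.323. Of the 5 SPBC8E4 genes, 3 fell in tra1-AA and 2 in tra1D, with medians of -0.692 and -0.39. Of 15 tested SPBC1289 genes, 1, cao2, fell in each mutant, with medians of -0.038 and -0.017. Over all tested genes 7.96% were lower in tra1-AA and 6.35% in tra1D, so the 6.67% of SPBC1289 lies near that share. No SPBCPT2R1 gene had enough counts to be tested. Outward of pan5, tgd1 and SPBPB2B2.19c were the only members tested. The outer edge of the called members at pan5 thus depends on which genes could be tested.

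The 46 outermost coding genes of each chromosome end were counted in the same way as a description. At the end described here they include the left-out genes, pho1 and another gene of its clone, and not prt2. In tra1-AA 8 of its 34 tested genes fell and 3 rose, the latter gal7, gal10 and pho1, and in tra1D 3 fell and 4 rose, these with gal1. The median log2 fold changes were -0.044 in tra1-AA and -0.004 in tra1D.

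At the left end of chromosome II, 16 of 29 tested genes fell and 0 rose in tra1-AA, and 10 fell and 1 rose in tra1D, with medians of -0.643 and -0.526. At the left end of chromosome I, 11 of 27 fell in tra1-AA and 9 in tra1D and 0 rose, with medians of -0.754 and -0.473. At its right end, 10 of 28 fell and 1 rose in tra1-AA, and 7 fell and 2 rose in tra1D. Each chromosome III end had 44 tested genes, of which 2 fell and 2 rose in either mutant at the left end. At the right end 5 fell and 4 rose in tra1-AA, and 4 fell and 5 rose in tra1D. Over all tested genes 7.96% fell in tra1-AA and 6.35% in tra1D, and the difference between ends was not tested.

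Most of the outermost genes had few or no counts in all genotypes. Of the 40 members, 12 did not have enough counts for the fit, among them all 5 SPBCPT2R1 genes, and 4 of them had no count in any library (SPBCPT2R1.02, SPBCPT2R1.03, ftm7 and SPBPB2B2.16c). Near-identical copies elsewhere in the genome cover part or all of the coding sequence in 11 of the 12, so reads may be shared with, or lost to, the copies. Low counts of these 11 therefore do not show that the genes are silent. Summed over the group, the 12 had 47 counts in WT, 62 in tra1D and 46 in tra1-AA, a normalised ratio to WT of 1.38 in tra1D (95% interval 0.931 to 2.07) and 1.02 in tra1-AA (95% interval 0.661 to 1.56). These exact intervals, and those below, cover counting error only.

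tlh2, the telomere-linked helicase gene and the outermost member, had 1, 1 and 2 counts in WT, 1, 12 and 1 in tra1D, against 1, 0 and 7 in tra1-AA, and a copy covers 98.3% of its coding sequence. The larger counts came from tra1D replicate 2 and tra1-AA replicate 3 alone, and the groups overlapped. SPBCPT2R1.04c, an uncharacterised gene beside it, had 4, 7 and 10 counts in WT, 1, 0 and 6 in tra1D, against 3, 0 and 5 in tra1-AA, with ratios to WT of 0.349 (95% interval 0.125 to 0.853) and 0.395 (95% interval 0.151 to 0.929). Here too the groups overlapped. SPBC1289.14, annotated as an adducin, is the member set aside that has no such copy, and its counts were 3, 6 and 8 in WT, 15, 6 and 14 in tra1D, against 8, 7 and 9 in tra1-AA. Its ratio to WT was 2.16 in tra1D (95% interval 1.18 to 4.11) and 1.46 in tra1-AA (95% interval 0.755 to 2.90), with overlapping groups.

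Among tested members, 2 have a copy over 100% of their coding sequence and are uncertain: the retrotransposon gene Tf2-11 and SPBPB2B2.19c, which encodes a predicted membrane protein. Neither passed, with log2 fold changes of -0.03 (tra1D) and -1.35 (tra1-AA) for Tf2-11 and of 0.04 (tra1D) and 0.19 (tra1-AA) for SPBPB2B2.19c. Of 26 genes for heterochromatin and telomere silencing factors, 1 (3.85%, against 11.5% of all tested genes) changed in tra1D by edgeR. It was set2, a histone methyltransferase gene, which fell (log2 fold change -0.21, BH-adjusted p = 0.0322 by edgeR), and DESeq2 also called dcr1, the gene for Dicer, as lower. In tra1-AA 7.69% changed, against 15.9% of all tested genes: set2 fell (-0.28, edgeR, BH-adjusted p = 0.00738) and bqt4, whose product anchors telomeres to the nuclear envelope, rose (0.29, edgeR, BH-adjusted p = 0.015).

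The direct comparison of tra1-AA with tra1D asks whether the allele and the deletion differ at this chromosome end. No member passed, where 0.0407% of all 4913 genes did (0.0204% lower and 0.0204% higher in tra1-AA), and the BH-adjusted p was 0.9985 for each of the 9 called members (edgeR). DESeq2 and limma-voom also called none. At an unadjusted p under 0.05, 4 members were lower in tra1-AA, as were 95 of all 4913 tested genes. Thus the 5 members called in tra1-AA alone (pan5, SPBPB2B2.06c, SPBPB2B2.05, say1 and SPBC8E4.03) were not shown to differ between the mutants.

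The intervals of the difference were wide for the genes of low CPM and wider still for nrg1 and cao2. It was -1.39 for SPBPB2B2.06c (95% interval -2.38 to -0.40), -1.32 for say1 (-2.41 to -0.23) and -0.91 for SPBPB2B2.05 (-1.73 to -0.09), all log2 of tra1-AA over tra1D and without adjustment. For nrg1 it was -1.30 (-2.62 to 0.01) and for cao2 -1.06 (-2.33 to 0.22). SPBC8E4.04 had -0.38 (-0.73 to -0.03), SPBC8E4.03 -0.30 (-0.66 to 0.05) and pan5 -0.20 (-0.45 to 0.05). The difference of prt2 was 0.05 (-0.33 to 0.43).

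**Figure D3:**
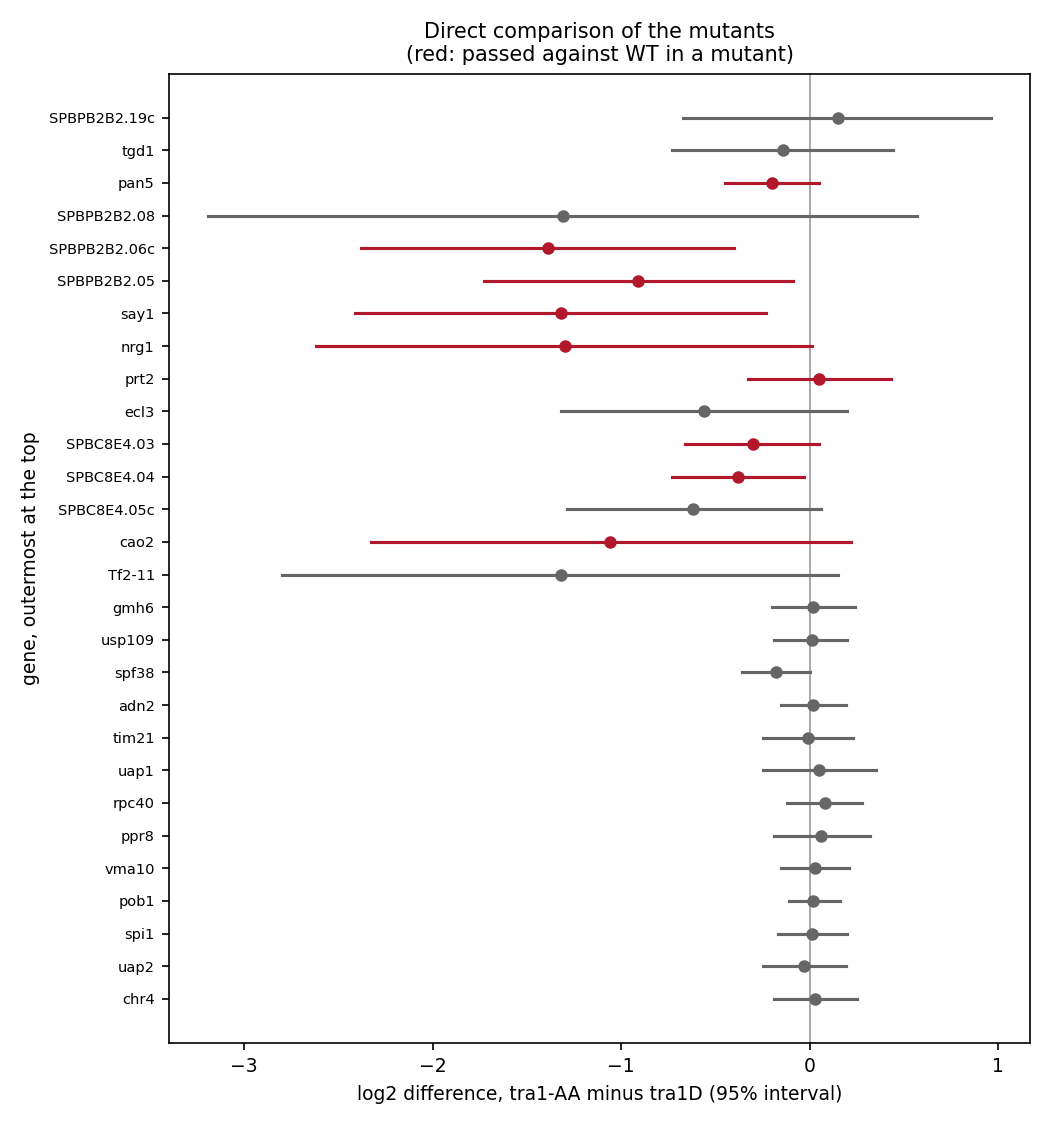
Difference between the mutants, as the log2 ratio of tra1-AA over tra1D with its unadjusted 95% interval, for the 28 tested members. Red marks the 9 members that passed against WT in at least 1 mutant. None passed after adjustment, and among the red intervals those of SPBPB2B2.06c, say1, SPBPB2B2.05 and SPBC8E4.04 lie wholly below 0.

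The called members varied between replicates, and often in the same libraries. Their median coefficient of variation was 22.2% in WT, 23.2% in tra1D and 20.8% in tra1-AA, where the median over all tested genes was 7.23%, 7.08% and 7.98%. WT replicate 3 was the lowest WT library for 7 of the 9, tra1D replicate 2 the lowest of tra1D for 8, and tra1-AA replicate 3 the lowest of tra1-AA for 6. How often each library was the lowest over all tested genes was not counted. The coefficients of variation were not compared at matched CPM, and low counts alone raise them. What set these libraries apart was not tested.

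The number of members called moved with the libraries used. In tra1D it ran from 1 (nrg1, without tra1D replicate 2) to 5 (without WT replicate 3), and it was 2 without WT replicate 1. In tra1-AA it was 5 without tra1-AA replicate 2 or replicate 3, each time nrg1, cao2, prt2, SPBC8E4.03 and SPBC8E4.04, it was 6 without WT replicate 1, and it was at most 9.

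**Figure D4:**
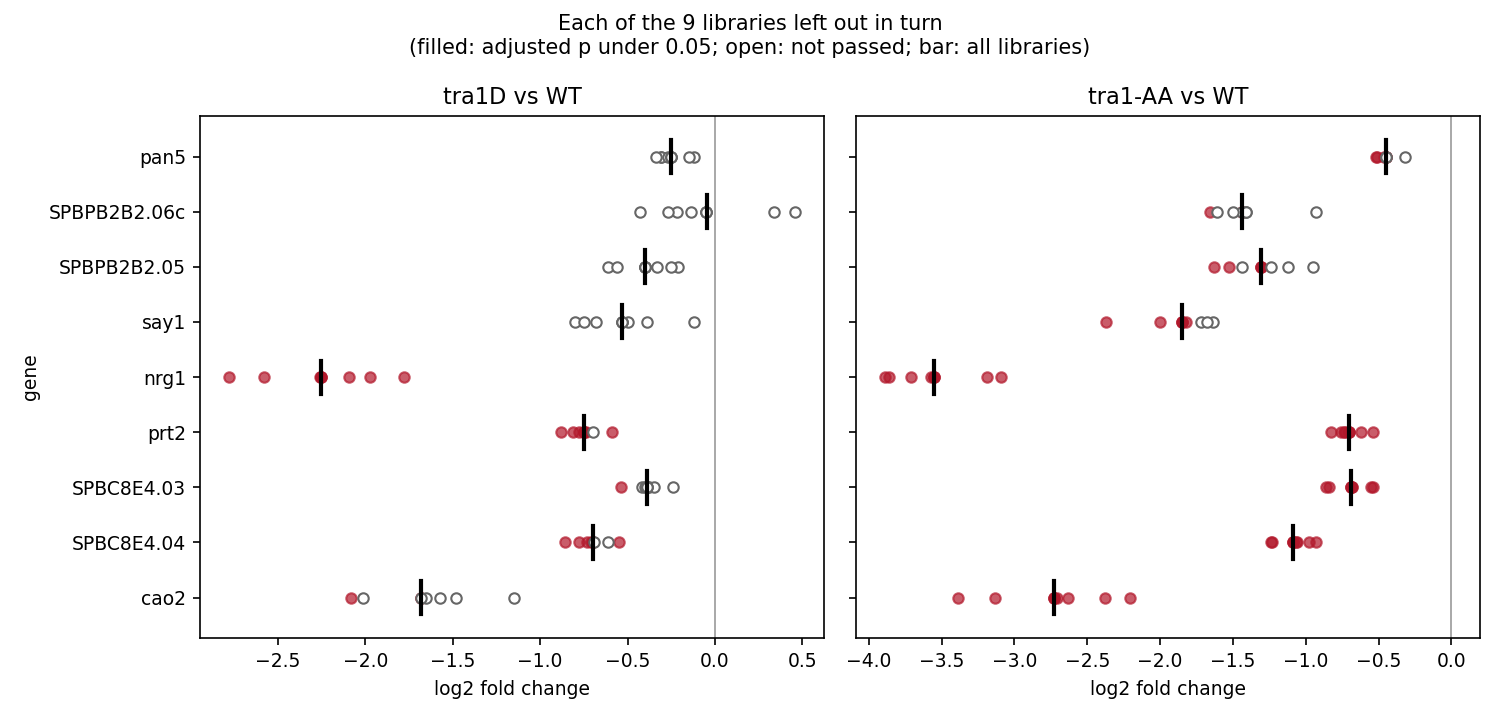
Log2 fold change against WT of the 9 called members with each of the 9 libraries left out in turn, for tra1D and tra1-AA. Filled points passed, open points did not, and the bar is the value with all libraries. All 9 stay below 0 in tra1-AA, and nrg1 is the gene filled throughout in both mutants.

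The authors' deposited table for tra1-AA lists 10 of the 40 members with an adjusted p under 0.05, all lower, namely the same 9 and spi1. Of all genes with an adjusted p there, 625 of 5057 were under 0.05. The authors' deposited table for tra1D lists 4, all lower, nrg1, prt2, SPBC8E4.04 and spi1, against 570 of 5054 genes with an adjusted p. Some of the 40 members, such as SPBCPT2R1.03, have no adjusted p in either. The log2 fold change of nrg1 was smaller in the authors' deposited tables than fitted here, with -0.73 in tra1-AA (adjusted p = 0.000428) and -0.54 in tra1D (adjusted p = 0.0199). DESeq2 as run here gave -3.58 and -2.22, so the deposited values may be a different measure of change. For cao2 the authors' deposited table for tra1-AA gave -0.46 (adjusted p = 0.0295). For SPBC8E4.04, of higher CPM, the authors' deposited tables gave -0.93 in tra1-AA and -0.62 in tra1D, against -1.09 and -0.70 here.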

How the data were processed

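Per the labels, TRIzol-extracted RNA went through DNase treatment and poly(A) selection into stranded TruSeq libraries for single-end HiSeq sequencing. Per the submitters' processing notes, the authors used bcl2fastq, HISAT2 2.1.0, HTSeq 0.9.1 and DESeq2 1.18.1. The deposited count table holds raw read counts per gene. The authors' deposited comparison tables give the log2 fold change and adjusted p-value of each mutant against WT. The strand setting, genome build and annotation were not given in the sources used here; coordinates and sequences are therefore left out. RefSeq ASM294v3 gave names (5114 of 5129 IDs and all 40 members matched), gene order, overlaps and copies (BLAST, at least 98% identity over 50 bases and 10% of the coding sequence).

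filterByExpr (minimum count 10, minimum total 15) kept 4913 genes. A single edgeR 4.0.16 quasi-likelihood fit of 9 libraries with TMM factors gave 3 comparisons, each Benjamini-Hochberg adjusted over all tested genes at 0.05. The fit was tested on simulated data. The SE is the absolute log2 fold change over the root of F, and 95% intervals use the fit's degrees of freedom. Genes with few counts were given as ratios of summed counts with exact 95% intervals. Full values go to members called in at least 1 comparison, and selected values to those of highest CPM or beside the galactose genes. Members, lists and roles were chosen with earlier results of these data known. Per-sample columns left unused numbered 0.

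Same-numbered WT and tra1-AA libraries deviated together (correlations 0.11, 0.36 and 0.21), so their numbers were taken to pair them. Those of WT and tra1D (-0.07, -0.12 and -0.01) and of tra1D and tra1-AA (-0.20, -0.08 and -0.02) were not. Unlike-numbered libraries reached at most 0.08 between WT and tra1-AA, but 0.22 between tra1D replicate 2 and tra1-AA replicate 1. The pairing thus rests on these data alone and is uncertain. Alternatives were DESeq2 1.42.0, limma-voom (limma 3.58.1), library totals alone, RLE factors, a mean of at least 10 CPM, no filter, only the 2 groups compared, the replicate block and each library left out. The block within 2 groups was added after seeing the data.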

Additional observations from a re-analysis of the deposited data

How the results depend on the processing

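With 3 libraries a group and high spread of the called genes, single libraries decide many calls. With each library left out, the genes called of all tested ranged from 278 to 655 in tra1D, from 365 to 846 in tra1-AA and from 2 to 5 between the mutants, where DESeq2 called 4. Members called ranged from 1 to 5 in tra1D and from 5 to 9 in tra1-AA. With the replicate block, 514 genes and 3 members (cao2 was lost) were called in tra1D, 718 and 8 (SPBPB2B2.06c was lost) in tra1-AA, and 3 genes between the mutants. Within only the 2 groups compared, the replicate block gave 411 genes and 3 members in tra1D, and 900 and 9 in tra1-AA. It changed no other call of a member. At a mean of at least 10 CPM, 7 members were called in tra1-AA, because say1 and SPBPB2B2.05 were not tested. The uncalled change of SPBPB2B2.06c in tra1D turned to 0.039 with library totals alone and ran from -0.43 to 0.46 with a library left out, and that of prt2 between the mutants from -0.002 to 0.14. Every other member reported with full values kept its direction, and the causes were not tested. With no filter, no member set aside for low counts was called in either mutant.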
